A study of Mus musculus with 8 samples.

Results

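Solute carriers were read from 185 probe sets, of 12488 on the array, whose single annotated gene symbol begins with Slc and a digit. They stand for 151 genes in 40 numbered families, and 1 further probe set that carried several symbols was left out. RNA came from mouse neurosphere cells, floating cultures that are grown from neural stem and progenitor cells. The cultures were set up from individually isolated embryonic day 14.5 forebrains, and all embryos carried a bcl2 transgene, so the untreated cells carried it as well. The 4 groups had 2 arrays each, 1 from each of 2 independent experiments. Cells in single-cell suspension received 150 nM Trichostatin A (TSA, an inhibitor of histone deacetylases), 500 nM 5-Aza-2′-deoxycytidine (AzaC, an inhibitor of DNA methylation) together with TSA (AzaC/TSA), AzaC alone, or neither (untreated), for 2 days. The sources used here give neither the promoter that drives the transgene nor any pooling of embryos.

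Solute carriers are membrane proteins that move amino acids, sugars, ions, nucleotides, vitamins and other small molecules across the plasma membrane and the membranes of organelles. Most work by coupling a substrate to an ion gradient, by exchanging substrates, or by facilitated diffusion, and the Slc25 family works in the inner mitochondrial membrane. In the forebrain, Slc1 carriers clear glutamate, Slc7 and Slc38 carriers feed cells with amino acids, and the balance of the Slc12 chloride carriers sets how neurons respond to GABA.

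Each value is 1 intensity per probe set and array, on a linear scale that the authors' values show to be scaled to a 2%-trimmed mean of 200.1. Array medians ran from 59.3 to 72.8. A signal under 20 was treated as a floor, and only probe sets that reached 50 on 2 or more of the 8 arrays, 7987 in number, were tested, with limma at an adjusted p of 0.05. Log2 changes are the first-named group minus the other, and "at least" (or, for a fall, "or lower" or "a lower bound of its size") marks one whose lower side alone had an array under the floor. Sox2 and Nes, from a list of 8 neural stem and progenitor marker genes, read high in all groups. Sox2, a neural stem cell factor, read 3474 and 2391 with TSA, 4830.4 and 2819 with AzaC/TSA, 3324 and 3119.9 with AzaC and 3407 and 3751 in untreated cells. Nes, which encodes the intermediate filament nestin of neural progenitors, read 1049 and 1949.6 with TSA, 2008 and 2921 with AzaC/TSA, 2259 and 3003 with AzaC and 2376 and 2053 in untreated cells. Its second probe set read 4.7 to 13.1, under the floor throughout. Among the others, Fabp7 (1063 to 10920) and Hes1 (263 to 414) read above 50 on all arrays. Pax6 read 39.2 to 159.7 and Vim 21.3 to 56.0. Msi1 (10.3 to 78.0) and the brighter Prom1 probe set (4.2 to 181.2) had arrays under the floor. Markers of dividing cells moved with TSA: the summed signal of the 5 probe sets for 4 of the 5 listed genes was 186 to 331 on the 4 TSA-exposed arrays, against 4249.6 to 6418 on the 4 others. Of the neuron markers 5 of 9 tested probe sets rose and 1 fell with TSA exposure, and of the astrocyte markers 1 of 5 fell (S100b). Of the progenitor markers 1 of 8 tested probe sets fell (Fabp7) and none rose. With the replicate block alone, Pax6 was lower (log2 change -1.08, adjusted p = 0.0207). The brighter Prom1 probe set was higher with the block alone (log2 change at least 1.75, adjusted p = 0.00974). The other Prom1 probe set passed in neither fit (log2 change 0.80). The part of these shifts in the carrier results was not tested, and in bulk RNA fewer cells of a type and less RNA per cell cannot be told apart.

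Of the 185 probe sets, 114 (61.6%) for 102 genes reached the signal needed for a test, 13 reached 50 on 1 array and 58 on none. The 71 untested probe sets read at most 96.3 on any array, with a median of 13.3 over all their values. The lists differed in how many members could be tested. Among the mitochondrial carriers 23 of 24 probe sets were tested, and among those for nucleosides and nucleotide sugars 12 of 14. For glucose and other sugars 8 of 13 were tested, and for amino acids 15 of 28. Of the 4 glutamate transporter probe sets 1 was tested, and of the 11 for other neurotransmitters 3. A list's counts and medians below cover its tested members only, which could have passed the filter through 1 pair of arrays.

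**Figure D1:**
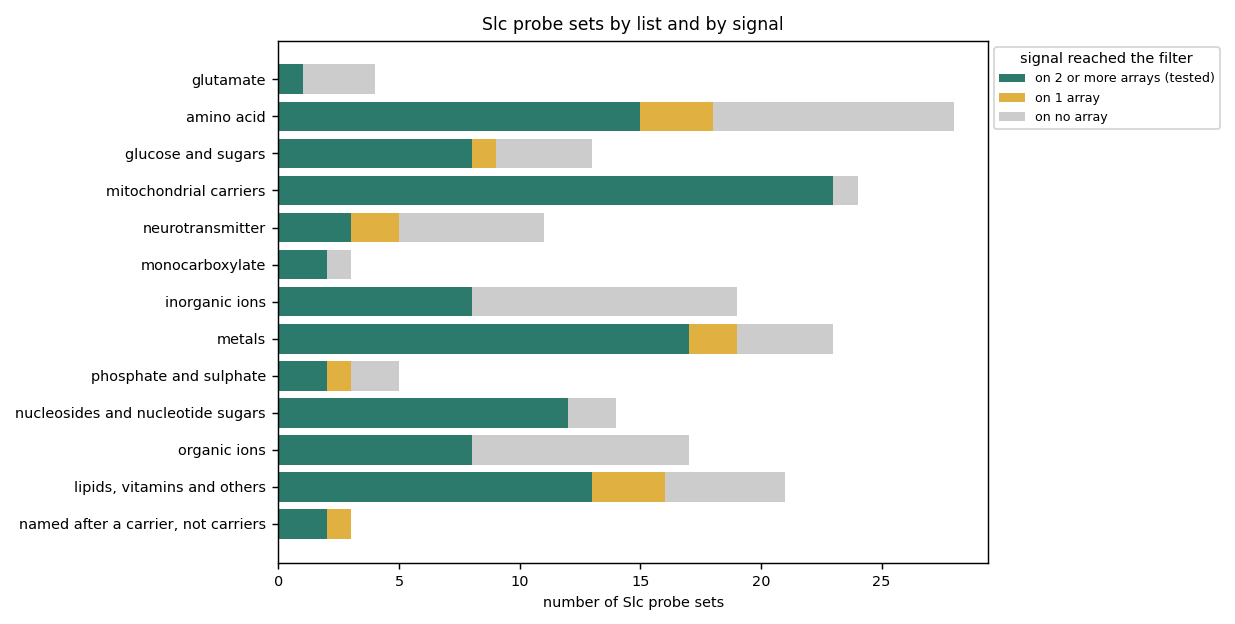
Number of solute carrier probe sets in each list (horizontal bars), divided by whether their signal reached 50 on 2 or more arrays, on 1 array or on none. Mitochondrial carriers were nearly all tested (23 of 24), glutamate transporters mostly not (1 of 4).

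TSA exposure changed 13 Slc probe sets when the 4 TSA and AzaC/TSA arrays were set against the 4 AzaC and untreated arrays, 7 higher and 6 lower. Those higher include Slc9a3r1, which is named after a carrier but encodes a scaffold protein. The largest rise was in Slc7a7, an amino acid exchanger, and the largest falls were in Slc38a2, an amino acid importer, Slc46a1, a folate carrier, and Slc15a2, a peptide carrier. The 13 are 11.4% of the 114 tested members, where 14.5% of all 7987 tested probe sets were called (6.95% higher, 7.54% lower). The signals of the exposed and unexposed arrays did not overlap for 18 members (15.8%), 7 higher and 11 lower, where 23.6% of all tested probe sets did not overlap (11% higher, 12.6% lower). The share of members called was thus not above that of the array as a whole. Each of the 13 kept its direction in experiments 2 and 1, as did 84 of all 114 tested members. The 13 were called on these same arrays, so their shared direction is not separate evidence. With the experiment as a replicate block the count was 22 (13 higher, 9 lower), where 23.9% of all tested probe sets were called (11.7% higher, 12.2% lower). In this report, "with the block alone" compares the fits with and without the block and does not cover the other alternatives. Slc12a7, for example, also passed with quantile normalization. With no filter on signal, only Slc7a7, Slc25a5 and Slc15a2 of the 13 still passed. With no intensity trend in the fit, Slc25a20, Slc9a3r1, Slc25a1, Slc7a5 and Slc12a2 lost their calls. Without 1 array at a time the count ran from 4 (without untreated 2 or AzaC 1) to 11 (without AzaC 2), and the other 5 arrays gave 6 to 9.

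**Figure D2:**
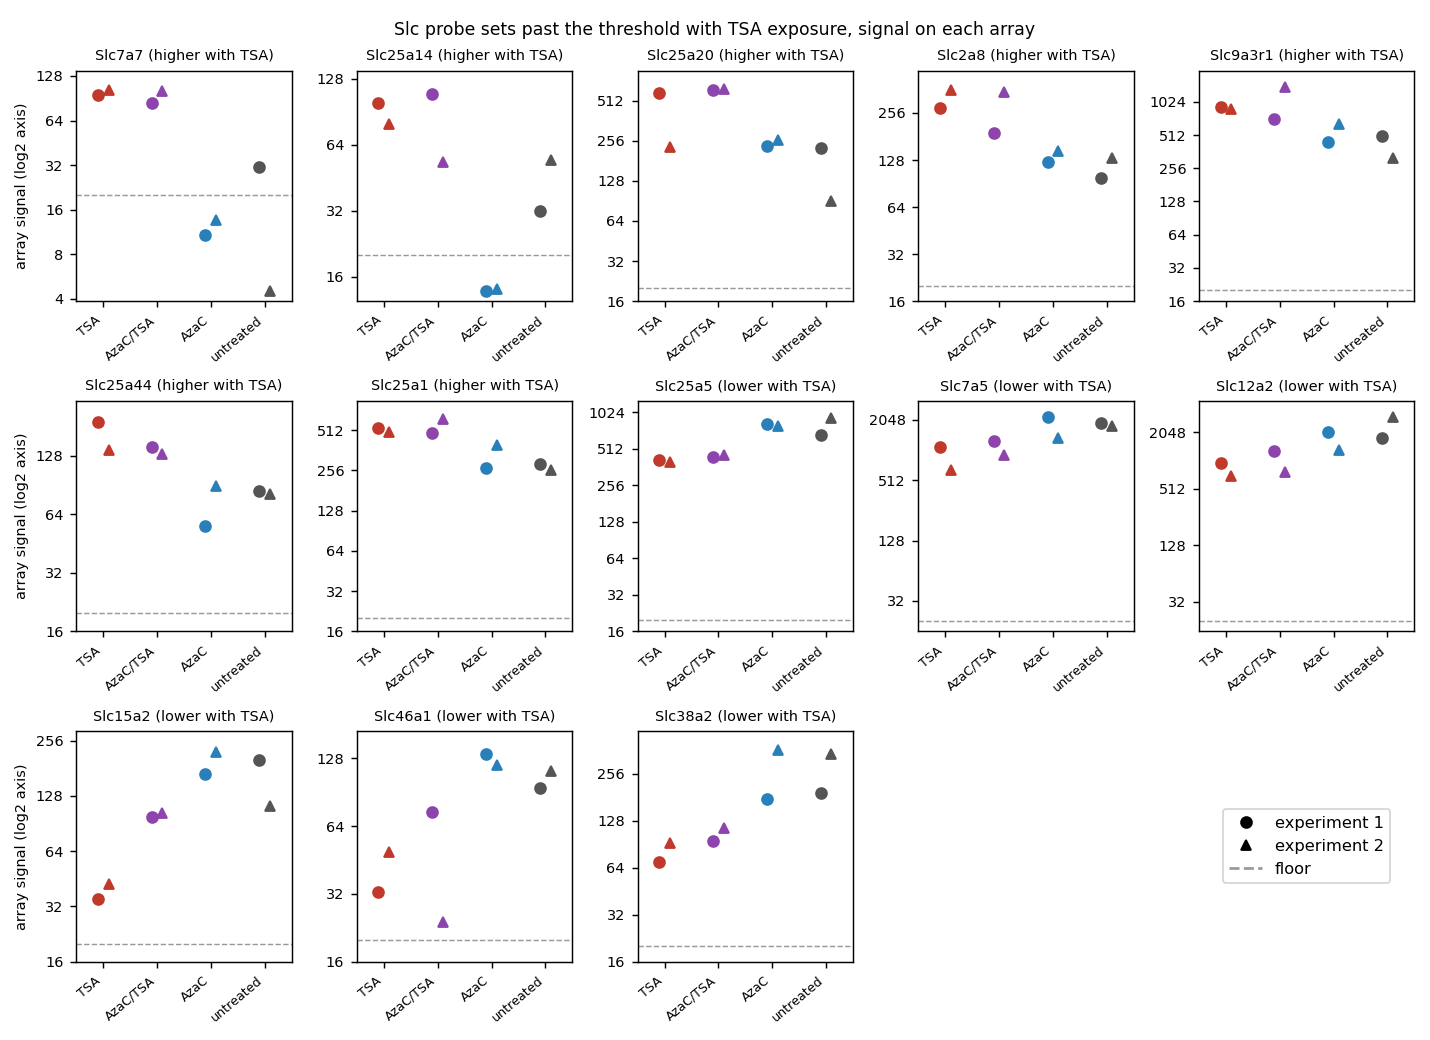
Signal on each array (log2 axis) for the 13 Slc probe sets past the threshold with TSA exposure, by group, with circles for experiment 1 and triangles for experiment 2. The dashed line is the floor of 20. Groups exposed to TSA lie apart from the others on all arrays except for Slc25a14 and Slc25a20.

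Of the genes called with TSA exposure, 8 have a single listed start in RefSeq's GRCm38.p6 promoter table, 4 that rose (Slc25a20, Slc2a8, Slc9a3r1 and Slc25a1) and 4 that fell (Slc25a5, Slc15a2, Slc46a1 and Slc38a2). The 250 bases before the start are shown for the 2 risers and 2 fallers whose calls held in the most of the 15 alternatives, Slc2a8 (10), Slc9a3r1 (8), Slc15a2 (15) and Slc25a5 (14). Capitals mark the GC box letters GGGCGG or CCGCCC, the core of Sp-family binding sites, searched on both strands. The windows are chr2:32982084-32982333 (minus strand) for Slc2a8, chr11:115163091-115163340 (plus strand) for Slc9a3r1, chr16:36784963-36785212 (minus strand) for Slc15a2 and chrX:36795347-36795596 (plus strand) for Slc25a5.
Slc2a8: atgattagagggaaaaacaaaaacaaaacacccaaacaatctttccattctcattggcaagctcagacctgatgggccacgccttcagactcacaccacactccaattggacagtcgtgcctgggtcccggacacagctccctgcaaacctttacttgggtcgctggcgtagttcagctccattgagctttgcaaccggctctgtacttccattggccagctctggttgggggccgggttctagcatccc
Slc9a3r1: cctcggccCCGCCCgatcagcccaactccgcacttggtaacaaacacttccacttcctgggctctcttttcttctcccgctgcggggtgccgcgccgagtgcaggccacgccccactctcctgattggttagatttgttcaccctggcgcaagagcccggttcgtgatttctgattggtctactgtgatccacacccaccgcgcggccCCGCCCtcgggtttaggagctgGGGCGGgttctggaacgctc
Slc15a2: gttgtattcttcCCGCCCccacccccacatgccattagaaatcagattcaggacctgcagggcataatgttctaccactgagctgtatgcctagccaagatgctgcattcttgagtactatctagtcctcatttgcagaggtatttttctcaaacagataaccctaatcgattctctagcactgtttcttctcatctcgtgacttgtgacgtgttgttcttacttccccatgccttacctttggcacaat
Slc25a5: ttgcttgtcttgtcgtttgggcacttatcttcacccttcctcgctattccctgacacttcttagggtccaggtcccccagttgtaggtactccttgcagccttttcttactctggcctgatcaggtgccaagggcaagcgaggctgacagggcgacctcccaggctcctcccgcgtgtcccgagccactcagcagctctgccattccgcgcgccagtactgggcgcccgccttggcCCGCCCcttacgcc
Among the risers, the window of Slc2a8 holds 7 CpG and 0 GC boxes, that of Slc25a20 8 and 3, that of Slc9a3r1 20 and 3, and that of Slc25a1 25 and 4. Each of the 4 fallers' windows holds 1 GC box, with 4 CpG for Slc15a2, 11 for Slc46a1, 14 for Slc25a5 and 30 for Slc38a2. Matches to the CCAAT box (CCAAT or ATTGG) stand in those of Slc2a8 (4, with a CCAAT and an ATTGG that overlap), Slc9a3r1 (2) and Slc25a1 (1). Over all 32851 windows in the table the median is 6 CpG, 32.7% hold a GC box and 33.8% a CCAAT box. None of the 8 windows holds the amino acid response letters TGATGNAA (3.45% of all windows) or TATAAA (12.4%).

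Amino acid carriers moved both ways. Slc7a7, the light chain of an exchanger of cationic for neutral amino acids that is known from gut, kidney and macrophages, read 94.9 and 103 with TSA, 84.0 and 101 with AzaC/TSA, 10.8 and 13.7 with AzaC and 31.1 and 4.5 in untreated cells. The 4 exposed arrays lie within a narrow range and above all 4 others, of which 3 are under the floor. It was higher with TSA exposure (log2 change at least 2.09, standard error 0.33, adjusted p = 0.00447), at least 4.27-fold, and it passed in all 15 alternatives tried. The macrophage marker Cd68 was also higher (log2 change 2.84, adjusted p = 0.00284): it read 167 to 474 on the TSA-exposed arrays and at most 53.0 on the others. Of the 8 probe sets for 5 macrophage and microglia markers, Cd68 was 1 of 2 tested. The other, for Csf1r, read 7.8 to 72.9 on the TSA-exposed arrays and 35.4 to 123 on the others and did not pass (log2 change -0.90, adjusted p = 0.276). The second Csf1r probe set read 14.2 to 28.3 with TSA exposure and 17.6 to 50.5 without it. Aif1 (3.3 to 9.1) and Itgam (2.8 to 8.8) stayed under the floor on all 8 arrays. The summed signal of the list was 242 to 585 on the exposed arrays and 164 to 242 on the others. That sum includes Cd68, so it does not show a rise of the other markers. The part of these cells in the Slc7a7 result was not tested.

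Slc38a2, a sodium-coupled importer of small neutral amino acids that starved cells induce, read 69.2 and 92.5 with TSA, 94.9 and 116 with AzaC/TSA, 177 and 362 with AzaC and 193 and 344 in untreated cells. Every exposed array lies below every unexposed one, and the 3 other Slc38a2 probe sets stayed under the filter on all arrays. It was lower with TSA exposure (log2 change -1.48, standard error 0.31, adjusted p = 0.0158), with changes of -1.77 in experiment 2 and -1.19 in experiment 1. The call was lost without TSA 1, without untreated 2 and with no filter. Slc7a5, the light chain of the main importer of large neutral amino acids, read 1103 and 654 with TSA, 1273 and 919 with AzaC/TSA, 2188 and 1349 with AzaC and 1909 and 1774 in untreated cells. The 4 exposed arrays lie below the 4 others, and it fell (log2 change -0.89, standard error 0.24, adjusted p = 0.0392). Its call was lost without each array other than TSA 1 and AzaC 2, with changes of -1.08 to -0.70. Slc3a2, the heavy chain that carries both Slc7a5 and Slc7a7 to the membrane, read 1784 and 1342 with TSA, 2244 and 1814 with AzaC/TSA, 2959 and 1677 with AzaC and 3122 and 1507 in untreated cells. Its exposed and unexposed arrays overlap, and it did not pass (log2 change -0.31, standard error 0.28, adjusted p = 0.498).

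Among the carriers of glutamine and other neutral amino acids, Slc1a4, an exchanger of alanine, serine and cysteine, read 299 and 246 with TSA, 304 and 271 with AzaC/TSA, 460.4 and 369 with AzaC and 725 and 346 in untreated cells. The groups do not overlap but the change did not pass (log2 change -0.70, standard error 0.26, adjusted p = 0.104), and did with the block (adjusted p = 0.0277). Slc1a5, the related exchanger of glutamine, read 69.2 and 189 with TSA, 56.2 and 85.3 with AzaC/TSA, 54.1 and 109.5 with AzaC and 44.3 and 74.6 in untreated cells, with overlapping groups and no call (log2 change 0.42, standard error 0.42, adjusted p = 0.555). Slc6a6, the taurine carrier, read 214 and 23.8 with TSA, 176 and 139 with AzaC/TSA, 25.5 and 10.3 with AzaC and 46.1 and 10.4 in untreated cells. Its TSA array of experiment 2 is near the floor while the other 3 exposed arrays are well above it, and it passed with the block alone (log2 change at least 2.01, standard error 0.64, adjusted p = 0.0698, and adjusted p = 0.0138 with the block). Slc6a9, a glycine carrier, read 143 and 99.3 with TSA, 119 and 259.5 with AzaC/TSA, 239.9 and 178 with AzaC and 232 and 217 in untreated cells. AzaC/TSA 2 lies above the unexposed arrays and the other 3 exposed arrays below them, and Slc6a9 did not pass (log2 change -0.58, standard error 0.30, adjusted p = 0.237). The other 7 tested members of the list, Slc38a10, Slc38a5, Slc3a1, Slc6a18, Slc6a20b, Slc7a2 and Slc7a9, did not pass, with changes of -1.06 or lower (Slc38a5) to 0.60 (Slc3a1). In all 1 of 15 rose and 2 fell, where 14.5% of all tested probe sets were called, 10 of the 15 changes were below 0, and their median was -0.58 (-0.41 in experiment 2 and -0.78 in experiment 1), against -0.03 over all tested probe sets. With no filter on signal the median of the 28 probe sets was -0.10.

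The glutamate transporters that could be read, 4 probe sets for 3 genes, were low in all groups. Slc1a1, the neuronal glutamate transporter, read 43.7 and 29.9 with TSA, 66.1 and 5.8 with AzaC/TSA, 20.2 and 1.8 with AzaC and 56.0 and 14.8 in untreated cells on its tested probe set. Values above and below the floor occur in every group but TSA, and it did not pass (log2 change 0.48, standard error 0.53, adjusted p = 0.594). Its other probe set stayed under 50 on all arrays, and those for Slc1a2, the main astrocyte glutamate transporter, and Slc1a6, that of Purkinje cells, at most 39.4 and 48.5. The astrocyte transporter Slc1a3 and the vesicular transporters Slc17a6, Slc17a7 and Slc17a8 had no probe set with a single annotated symbol, so they could not be read here. Of the partners in glutamate metabolism (Glul, Glud1 and Got2) 0 of 4 tested probe sets passed with TSA exposure.

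In the glucose and sugar list 1 of 8 rose and none fell (12.5%, close to the 14.5% of all tested probe sets). Slc2a8, an intracellular glucose transporter (GLUT8), read 276 and 359.5 with TSA, 191 and 346 with AzaC/TSA, 125 and 146 with AzaC and 98.8 and 131 in untreated cells. All exposed arrays are above all others, in a change of 2.29-fold (log2 change 1.20, standard error 0.26, adjusted p = 0.0177), with 1.35 in experiment 2 and 1.05 in experiment 1. It lost its call without TSA 2, AzaC/TSA 2, AzaC 1 or untreated 1, at adjusted p of at most 0.0691. Slc37a4, which moves glucose-6-phosphate into the endoplasmic reticulum, read 103 and 36.9 with TSA, 96.2 and 98.4 with AzaC/TSA, 241 and 123 with AzaC and 188 and 187 in untreated cells. The groups do not overlap, and it was called lower with the block alone (log2 change -1.21, standard error 0.37, adjusted p = 0.0595, and adjusted p = 0.0169 with the block). Slc50a1, of the SWEET sugar transporters, read 269 and 229 with TSA, 342 and 186 with AzaC/TSA, 174 and 96.4 with AzaC and 193 and 120.4 in untreated cells. Higher in each exposed array than in both unexposed arrays of its own experiment, it passed with the block alone (log2 change 0.83, standard error 0.31, adjusted p = 0.106, and adjusted p = 0.0167 with the block).

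The transporters that bring glucose into neural cells did not pass. Slc2a1, of the blood-brain barrier and most growing cells, read 55.9 and 102 with TSA, 35.9 and 122 with AzaC/TSA, 72.2 and 98.2 with AzaC and 60.7 and 61.0 in untreated cells (log2 change -0.02, standard error 0.43, adjusted p = 0.981). Slc2a3, the neuronal glucose transporter, had 2 tested probe sets, of which the higher-reading one gave 100.2 and 151 with TSA, 113 and 113 with AzaC/TSA, 42.9 and 108 with AzaC and 94.3 and 28.6 in untreated cells (log2 change 0.99, standard error 0.45, adjusted p = 0.184). Its other probe set changed by 0.48 (adjusted p = 0.441). Slc2a4, the insulin-responsive transporter (log2 change 0.40), and Slc2a5, a fructose transporter (log2 change -0.39, a lower bound of its size), read near the floor. Slc2a2, Slc5a1 and Slc5a11 stayed under 50 on all arrays, as did the second Slc2a4 probe set, and the second Slc2a8 probe set reached it on 1. The median over the 8 was 0.44 (0.69 in experiment 2 and 0.18 in experiment 1). It was 0.01 over the 13 probe sets with no filter and 0.83 over the 5 left by a filter at 50% of the trimmed mean. Of the hexokinases, which trap glucose in the cell, neither Hk1 nor Hk2 passed with TSA exposure, and Hk2 was lower with the block (log2 change -1.24, adjusted p = 0.00321).

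**Figure D3:**
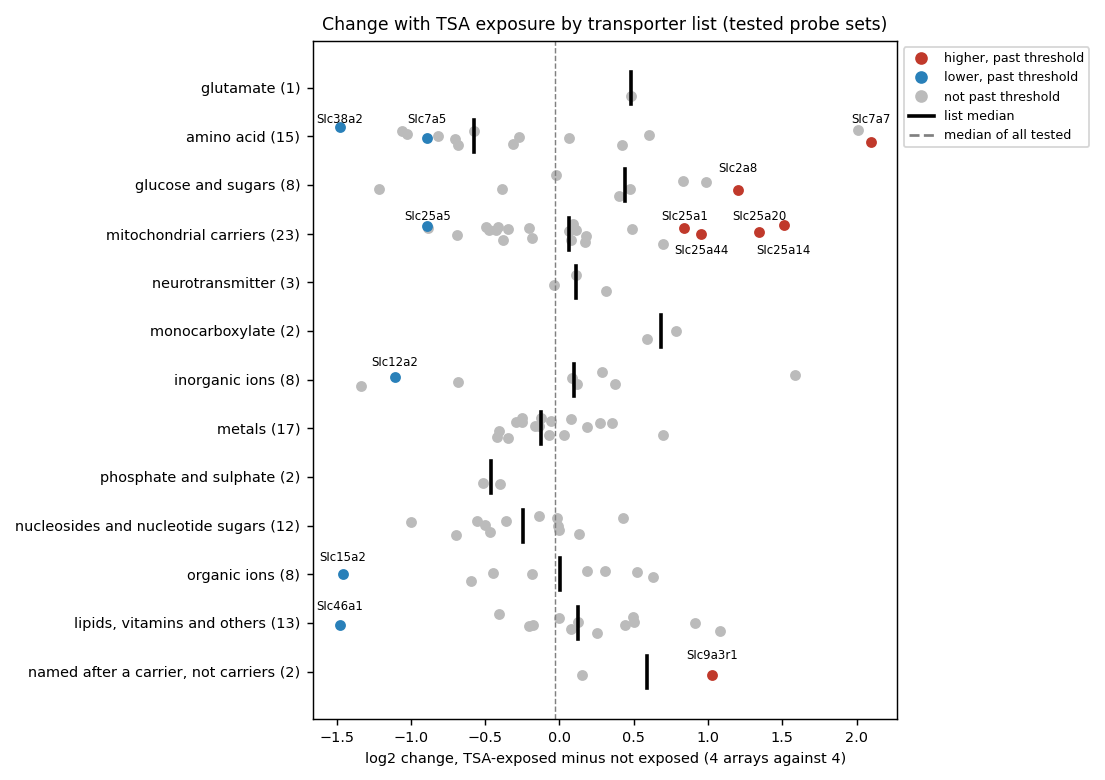
Log2 change with TSA exposure (horizontal axis, 4 arrays against 4) for the 114 tested probe sets, by list with the number of members, with red and blue for those past the threshold, a bar for each list's median and a dashed line for the median of all tested probe sets. Amino acid carriers have a median of -0.58 and glucose and sugar carriers one of 0.44, and called members lie on both sides of 0 among the amino acid and mitochondrial carriers.

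Mitochondrial carriers, the list with the most tested members, held 5 of the 13 calls. Of 23 tested probe sets 4 rose and 1 fell (21.7%, where 14.5% of all tested probe sets were called, 6.95% higher and 7.54% lower), and 12 of the 23 changes were above 0 with a median of 0.06. That median changed sign when single arrays were left out, from -0.25 without TSA 2 to 0.12 without AzaC 2. Slc25a20, which exchanges carnitine for acylcarnitine and so feeds fatty acids to oxidation, read 588 and 229.8 with TSA, 611 and 628 with AzaC/TSA, 234 and 260.2 with AzaC and 227 and 90.4 in untreated cells. The TSA array of experiment 2 lies among the unexposed arrays and the other 3 exposed arrays far above them. It rose 2.54-fold (log2 change 1.34, standard error 0.36, adjusted p = 0.0401), and lost its call without TSA 1, either AzaC/TSA array, either AzaC array or untreated 2, with changes of 1.00 to 1.68. Slc25a1, the citrate carrier that supplies the cytosol for lipid synthesis, read 533 and 495 with TSA, 488 and 622 with AzaC/TSA, 269 and 394 with AzaC and 285 and 259 in untreated cells. All exposed arrays are above all others (log2 change 0.84, standard error 0.20, adjusted p = 0.0259), and the call was kept without AzaC/TSA 1 or AzaC 2 but not without the other 6 arrays (changes of 0.70 to 0.98). Its second probe set did not overlap either but did not pass (log2 change 0.70, standard error 0.24, adjusted p = 0.0894).

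Slc25a14, an inner-membrane carrier abundant in brain, read 99.0 and 79.1 with TSA, 109 and 53.4 with AzaC/TSA, 13.7 and 14.1 with AzaC and 31.7 and 54.7 in untreated cells. The AzaC/TSA array of experiment 2 falls just under the untreated array of that experiment, and both AzaC arrays are under the floor. It was higher with TSA exposure (log2 change at least 1.51, standard error 0.38, adjusted p = 0.0297), and the call held without AzaC/TSA 2 and was lost without each other array. Slc25a44, a carrier of branched-chain amino acids, read 190.2 and 137 with TSA, 141 and 131 with AzaC/TSA, 55.9 and 89.4 with AzaC and 83.9 and 81.7 in untreated cells. Its exposed arrays are all above the others (log2 change 0.95, standard error 0.27, adjusted p = 0.0448), and leaving out any array but AzaC 2 took the call away, with changes of 0.78 to 1.12.

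The ADP/ATP carriers Slc25a5 and Slc25a4 had changes of opposite sign, of which only that of Slc25a5 passed without the block. Slc25a5, the form of dividing cells, read 413 and 401 with TSA, 439.5 and 459 with AzaC/TSA, 820.1 and 790.2 with AzaC and 663 and 915 in untreated cells on the probe set that passed. Exposed arrays are all below the others, by 1.85-fold (log2 change -0.89, standard error 0.18, adjusted p = 0.012), and without untreated 2 the adjusted p was 0.0514. That probe set carries the array maker's mark for probes shared within a gene family, so its reading can hold other members' RNA. The other 2 Slc25a5 probe sets changed by -0.69 and -0.42, with overlapping groups, and did not pass. Slc25a4, the form of heart, muscle and brain, read 9821 and 7973 with TSA, 10426 and 5890.1 with AzaC/TSA, 6899 and 4384 with AzaC and 7049.7 and 5862 in untreated cells. In each experiment the exposed arrays were above the unexposed ones, and it passed with the block alone (log2 change 0.49, standard error 0.24, adjusted p = 0.213, and adjusted p = 0.0314 with the block). Slc25a25, the carrier of ATP-magnesium and phosphate, read 232 and 417 with TSA, 287 and 479 with AzaC/TSA, 566 and 712 with AzaC and 750.3 and 509 in untreated cells. The exposed arrays are all lower, past the threshold with the block alone (log2 change -0.88, standard error 0.27, adjusted p = 0.0609, and adjusted p = 0.0214 with the block).

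The remaining mitochondrial carriers did not pass in either fit. They include Slc25a11, the oxoglutarate carrier (log2 change -0.18), Slc25a39, needed for mitochondrial glutathione (0.11), Slc25a36, a pyrimidine nucleotide carrier (0.18), and Slc25a17, a peroxisomal carrier (0.08). Standard errors of these 4 were 0.17 to 0.20. Slc25a15, the ornithine carrier of the urea cycle, had a change of -0.47 (adjusted p = 0.277). Slc25a3, the phosphate carrier, read close to the floor on most arrays and varied within groups (127 and 8.4 in untreated cells).

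Ion carriers gave 1 call in 8 (12.5%), close to the 14.5% of all tested probe sets. Slc12a2, the sodium, potassium and chloride importer (NKCC1) that loads immature neurons with chloride, read 964 and 706 with TSA, 1294 and 768 with AzaC/TSA, 2065 and 1319 with AzaC and 1795 and 2989 in untreated cells. Every exposed array lies below every unexposed one, a fall of 2.16-fold (log2 change -1.11, standard error 0.26, adjusted p = 0.0252). The call was lost without TSA 2, AzaC/TSA 2, AzaC 1 or untreated 2. Slc12a7, a potassium and chloride exporter (KCC4), read 162 and 56.7 with TSA, 191 and 223 with AzaC/TSA, 48.0 and 147 with AzaC and 34.1 and 6.3 in untreated cells. AzaC 2 lies among the exposed arrays and the other 3 unexposed arrays below them, and it passed with the block alone (log2 change at least 1.59, standard error 0.47, adjusted p = 0.0526, and adjusted p = 0.0308 with the block). Slc4a3, a chloride and bicarbonate exchanger, had exposed arrays below all others and did not pass (log2 change -0.68, standard error 0.24, adjusted p = 0.0907). Slc4a4, a sodium bicarbonate cotransporter, had one of the 5 largest falls and did not pass (log2 change -1.34, a lower bound of its size, standard error 0.98, adjusted p = 0.408).

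Among carriers of peptides and vitamins, Slc15a2, a proton-coupled peptide importer of astrocytes and choroid plexus, read 34.9 and 42.5 with TSA, 97.9 and 103 with AzaC/TSA, 168 and 223 with AzaC and 202 and 113 in untreated cells. Both TSA arrays are lowest, both AzaC/TSA arrays lie between, and all 4 are below the unexposed arrays. It was lower with TSA exposure by 2.75-fold (log2 change -1.46, standard error 0.28, adjusted p = 0.0111), and passed in all 15 alternatives. Slc46a1, the proton-coupled folate transporter, read 32.5 and 49.3 with TSA, 74.0 and 23.9 with AzaC/TSA, 134 and 119.6 with AzaC and 94.6 and 112 in untreated cells. The groups do not overlap, the lowest value being AzaC/TSA 2 (log2 change -1.48, standard error 0.40, adjusted p = 0.0389), and the call was lost without any array but AzaC/TSA 1. The choline transporter-like genes Slc44a1 (log2 change 0.91, standard error 0.35, adjusted p = 0.121) and Slc44a2 (log2 change 1.08, standard error 0.35, adjusted p = 0.0708) passed with the block alone (adjusted p = 0.0454 and 0.0447). Slc9a3r1, named after a carrier but encoding the scaffold NHERF1 that binds sodium-proton exchangers and other membrane proteins, read 924 and 876 with TSA, 716 and 1379.5 with AzaC/TSA, 447 and 645 with AzaC and 502 and 320.3 in untreated cells. All exposed arrays are above all others (log2 change 1.03, standard error 0.26, adjusted p = 0.0329), and the call was lost without either TSA array, AzaC/TSA 2, AzaC 1 or untreated 2.

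Carriers of metals and of nucleotides made no call with TSA exposure, where 14.5% of all tested probe sets were called. Whether lists of this size differ from that share was not tested. Slc39a7, which releases zinc from the endoplasmic reticulum, and Slc35b1, a nucleotide carrier of the same compartment, were among the 10 brightest members in untreated cells, and changed by -0.25 and -0.02. The 17 tested metal carrier probe sets, mostly zinc transporters of the Slc30 and Slc39 families, changed by -0.42 to 0.69, with a smallest adjusted p of 0.208. Among the 12 for nucleosides and nucleotide sugars, which supply nucleosides to cells and sugars to the Golgi, 10 changes were below 0, with a median of -0.25 and a smallest adjusted p of 0.186. The monocarboxylate transporter Slc16a1 (MCT1, which moves lactate) read 42.3 and 68.2 with TSA, 59.1 and 59.8 with AzaC/TSA, 7.2 and 32.5 with AzaC and 26.8 and 67.1 in untreated cells and did not pass (log2 change at least 0.78, standard error 0.42, adjusted p = 0.257). Its chaperone Bsg read 5860.2 and 5993 with TSA, 5018 and 4474 with AzaC/TSA, 2745 and 2654 with AzaC and 2417 and 2864 in untreated cells, with all exposed arrays above all others (log2 change 0.99, adjusted p = 0.00404). In the amino acid response, Atf4, the transcription factor that induces Slc7a5 and Slc38a2 on starvation, read 892 and 1302 with TSA, 804 and 1228 with AzaC/TSA, 1824 and 2216 with AzaC and 1862 and 1522 in untreated cells and fell with TSA exposure (log2 change -0.83, adjusted p = 0.0325). Its target Ddit3 rose (log2 change 1.04, adjusted p = 0.0173), Psat1, of serine synthesis, fell (log2 change -0.78, adjusted p = 0.0129), and the other 4 tested probe sets of that list, for Asns, Trib3 and Phgdh, did not pass.

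TSA alone against untreated cells gave 2 calls among the 114 members (1.75%), where 5.02% of all tested probe sets were called (2.09% higher, 2.93% lower). Slc7a7 was higher (log2 change at least 1.99, standard error 0.47, adjusted p = 0.0453) and Slc15a2 lower (log2 change -1.97, standard error 0.40, adjusted p = 0.0287). These arrays are part of the comparison by exposure, so the calls are not separate evidence. With the replicate block 9 members passed (3 higher, 6 lower), where 12.2% of all tested probe sets did (5.6% higher, 6.56% lower). The 7 added were Slc2a8 (1.47) and Slc25a1 (0.92), both higher, and Slc25a5 (-0.94), Slc7a5 (-1.12), Slc12a2 (-1.49), Slc37a4 (-1.60) and Slc38a2 (-1.69), all lower. The other Slc25a5 probe sets changed by at least 0.01 and -0.23, the dimmest of them with the opposite sign, and passed in neither fit. Among the 5 largest rises and 5 largest falls, Slc12a7 (at least 1.87), Slc25a20 (1.36), Slc2a3 (1.24) and Slc38a5 (-1.55 or lower) passed in neither fit. Slc7a7 passed in 3 of the 15 alternatives and Slc15a2 in 10, with adjusted p of 0.0254 to 0.244 and 0.0116 to 0.140. Slc7a7 lost its call without each of the 8 arrays in turn. Without either TSA array or either untreated array no member passed, and without each other array 1 or 2 did. The median half-width of the 95% interval of a member was 0.93 on the log2 scale, so changes under that size could not usually be resolved.

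AzaC and TSA together gave 1 call against untreated cells, Slc12a7 (log2 change at least 2.98, standard error 0.66, adjusted p = 0.0478), at least 7.90-fold higher, which is 0.877% of the members where 3.12% of all tested probe sets were called (1.29% higher, 1.83% lower). Both untreated arrays are below both AzaC/TSA arrays, and untreated 2 is under the floor. The call was lost without either AzaC/TSA array or either untreated array, with changes of 2.60 to 3.37, and it passed in 6 of the 15 alternatives (adjusted p 0.0201 to 0.288). With the replicate block 9 members passed (7 higher, 2 lower), where 9.34% of all tested probe sets did (4.38% higher, 4.96% lower). Besides Slc12a7 these were Slc25a20 (2.11), Slc7a7 (at least 1.88), Slc9a3r1 (1.31), both Slc25a1 probe sets (1.22 and 1.02), Slc2a8 (1.17), and, lower, Slc12a2 (-1.22) and Slc38a2 (-1.30). Slc6a6 (at least 2.36), Slc29a1 on its brighter probe set (-1.86), Slc46a1 (-1.29) and Slc4a4 (-1.18 or lower), also among the 5 largest rises or falls, passed in neither fit. The dimmer Slc29a1 probe set changed in the opposite direction. The TSA and the AzaC/TSA comparison use the same 2 untreated arrays. Slc15a2 changed by -0.59 with AzaC/TSA (adjusted p = 0.496) and by -1.97 with TSA, and its interaction term of 1.02 did not pass (unadjusted p = 0.103).

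**Figure D4:**
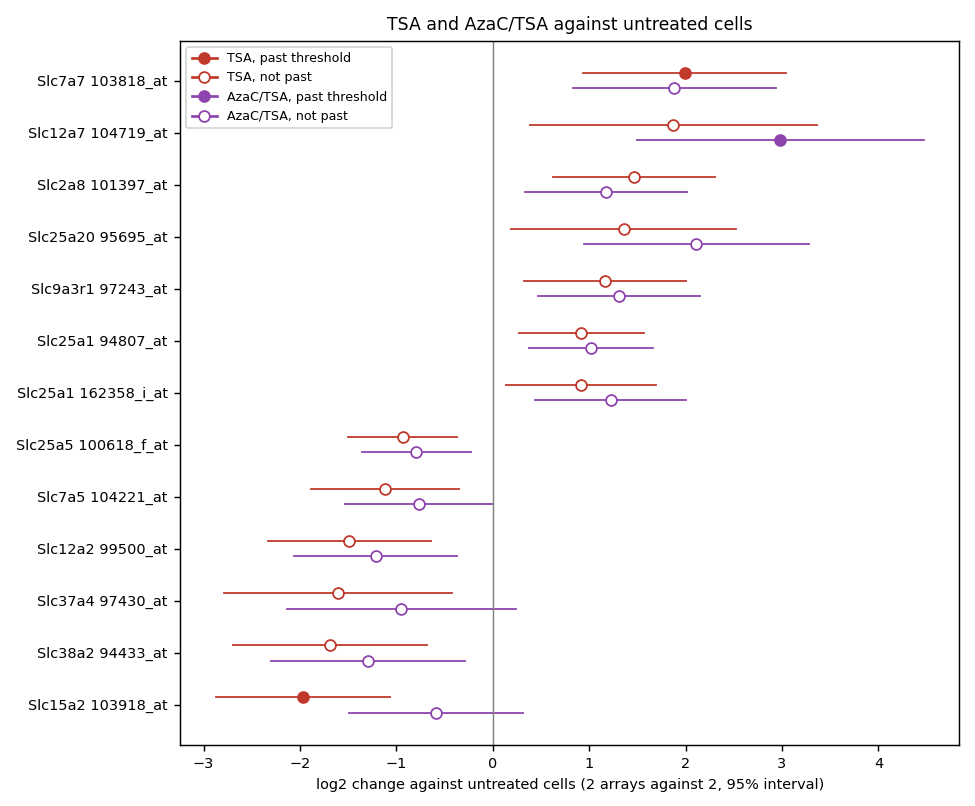
Log2 change (points) with 95% interval (lines) for TSA (red) and AzaC/TSA (purple) against untreated cells, 2 arrays against 2, for the 13 probe sets past the threshold in either comparison, with or without the replicate block. Filled points passed without the block: Slc7a7 and Slc15a2 with TSA, and Slc12a7 with AzaC/TSA.

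AzaC alone changed no carrier past the threshold against untreated cells, and 0% of all tested probe sets were called by limma, with or without the replicate block. Of the 114 members 7 had an unadjusted p under 0.05, and of all tested probe sets 2.19%. The number was 3 to 9 in the alternatives. Slc31a1, the main copper importer, had the smallest p: its probe set read 756 and 921 with TSA, 657 and 769 with AzaC/TSA, 482 and 484 with AzaC and 928 and 771 in untreated cells. Both AzaC arrays are below both untreated arrays (log2 change -0.81, unadjusted p = 0.00891, adjusted p = 1). Its second probe set changed the other way, by 0.13. The other 6, all higher with AzaC, were Slc29a1 (log2 change at least 1.44), Slc12a7 (log2 change at least 1.68), Slc25a5 on its dimmest probe set (log2 change at least 1.50), Slc25a51 (log2 change 0.89), Slc7a9 (log2 change 1.28) and Slc22a12 (log2 change 1.38). Slc29a1's brighter probe set changed by -0.56 and the other Slc25a51 probe set by -0.33. Among members with 1 direction in both experiments, the 5 largest falls, none past the threshold, were those of Slc31a1, Slc25a14 (-1.06 or lower), Slc6a8, the creatine carrier (-0.75), Slc16a1 (-0.73 or lower) and Slc16a8, a lactate carrier of retinal epithelium (-0.65 or lower).

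Over both pairs of groups, 4 AzaC-exposed arrays against 4 not exposed, again 0 of 114 members and 0% of all tested probe sets passed, and 4 members had an unadjusted p under 0.05. They were Slc29a1 (at least 1.39, on its dimmer probe set), Slc15a2 (0.87), Slc31a1 (-0.52) and Slc12a7 (at least 1.40). The exposed and unexposed arrays did not overlap for 3 members (2.63%), all higher, where 1.38% of all tested probe sets did not (0.864% higher, 0.513% lower). The interaction, the change with AzaC/TSA beyond the sum of the single agents, also passed for 0 members by limma. An unadjusted p was under 0.05, for the family-shared Slc25a51 probe set (log2 -1.71, limma's unadjusted p = 0.0107). Slc27a4, a fatty acid transporter, had the next smallest (1.37, limma's unadjusted p = 0.0863). The median half-width of a member's 95% interval for the interaction was 1.32, wider than that of any other comparison.

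The experiments differed in 2 carriers, both lower in experiment 2 (1.75% of members, where 4.22% of all tested probe sets were called, 1.58% higher and 2.64% lower). Slc22a17, a receptor for the iron carrier lipocalin-2, read 578 with TSA, 618 with AzaC/TSA, 615 with AzaC and 1066 untreated in experiment 2, against 1102, 1032, 1447 and 1489 in experiment 1. It was lower in experiment 2 within every group (log2 change -0.85, standard error 0.16, adjusted p = 0.021). Slc4a4, the electrogenic sodium bicarbonate cotransporter, read 36.6 with TSA, 10.2 with AzaC/TSA, 35.4 with AzaC and 20.7 untreated in experiment 2, against 41.6, 73.9, 341.5 and 366 in experiment 1. It was lower in experiment 2 in all groups, most in those without TSA (log2 change -2.37, a lower bound of its size, standard error 0.56, adjusted p = 0.0467). Slc3a2 just missed the threshold (log2 change -0.65, standard error 0.16, adjusted p = 0.0512). Both calls were lost with no filter and with no intensity trend. Slc22a17 was no longer called without any TSA, AzaC/TSA or AzaC array, with changes of -0.97 to -0.72, and Slc4a4 without any AzaC/TSA, AzaC or untreated array, with changes of -3.10 to -1.78.

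**Figure D5:**
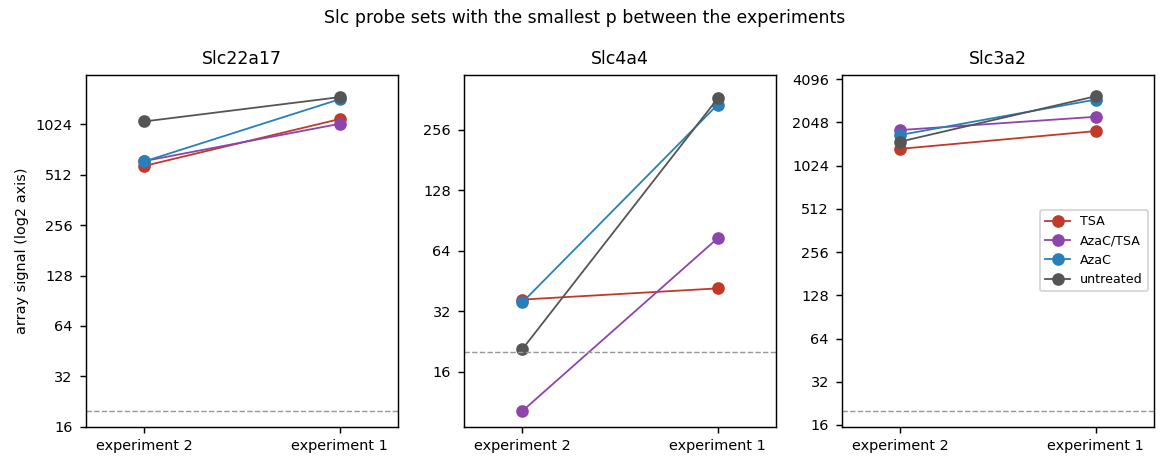
Signal on each array (log2 axis) of Slc22a17, Slc4a4 and Slc3a2 in experiment 2 (left) and experiment 1 (right), with a line for each group and a dashed floor at 20. Every group is lower in experiment 2 for all 3, and Slc4a4 has its widest gap in AzaC and untreated cells.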

How the data were processed

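Intensity values, 1 per probe set and array on a linear scale, were used as the authors deposited them. Arrays had been scaled to a common 2%-trimmed mean (200.1), which was found from the values. Scanner software, its settings and genome build: not given in the sources used here. The 66 control probe sets were left out. Signals under 20 (10% of the trimmed mean) were raised to it, log2 was taken, and probe sets reaching 50 on at least 2 of the 8 arrays were tested (7987 of 12488). Symbols came from the array annotation, and all 185 members matched RefSeq by gene ID with 0 changes of symbol. The array annotation names no build, so no gene coordinates are given beyond RefSeq's own promoter windows.

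limma 3.58.1 in R 4.3.3 (lmFit, eBayes with an intensity trend, two-sided) was fitted over all 8 arrays with 1 mean per group (4 residual degrees of freedom, prior 4.93), with Benjamini-Hochberg adjustment across the 7987 probe sets. With 2 arrays per group and no more known of the cultures than that the experiments were independent, p-values measure the spread between these samples only. The sample titles number the experiments, and deviations of same-numbered arrays from their group means correlated in all 6 pairs of groups (r 0.203 to 0.411), so the experiment was also fitted as a replicate block (3 residual degrees of freedom, prior 6.71). That fit is the one used between experiments. The alternatives were quantile normalization, a floor at 2.5% of the trimmed mean, an offset in place of the floor, no filter, a filter at 50%, no intensity trend, the block, and each array left out. No other per-sample columns were set aside (0). Figures were drawn with matplotlib 3.10.9.

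Members and lists were chosen with earlier results of these data known. The rule for named genes took every member past the threshold in any of 7 comparisons, with or without the block. It also took the 5 largest rises and falls with the same direction in both experiments (TSA, AzaC/TSA and AzaC against untreated, TSA exposure), and the 3 smallest p of the other 3 comparisons. Further it took the tested glutamate, amino acid and glucose members, the 10 brightest mitochondrial carriers, and the 10 members brightest in untreated cells. Genes whose probe sets disagreed in direction where at least 1 passed were named too, which held for Slc25a5 with TSA against untreated. Members under the filter were counted, and named only in the glutamate and glucose lists. Context genes came from marker and partner lists.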

Additional observations from a re-analysis of the deposited data

Results flagged for a closer look

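The results here are tested members picked by the order of their arrays, 2 exposed against 2 not exposed. Both exposed arrays lay above both unexposed ones in a setting, and below them in the other setting. The settings were the experiments, or presence and absence of the other agent. The share of all tested probe sets that meet this rule was not counted.

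For TSA exposure by experiment, the change in experiment 2 minus that in experiment 1 was 1.09 for Slc2a1 (0.52 in experiment 2 and -0.56 in experiment 1), 0.42 for Slc25a39 (0.32 and -0.10), -2.51 for Slc25a53 (-1.08 and 1.43), 1.87 for Slc6a2 (0.90 and -0.97), 1.17 for Slc12a4 (0.71 and -0.47) and 1.32 for Slc34a1 (0.26 and -1.06). For AzaC exposure it was 2.90 for Slc25a3 (1.24 in experiment 2 and -1.65 in experiment 1), 0.62 for Slc9a8 (0.34 and -0.27) and 2.13 for the dimmer Slc23a3 probe set (0.74 and -1.39). These differences between experiments were not tested. Slc25a3, Slc34a1 and the Slc23a3 probe set had arrays under the floor, values with no order.

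Between agents, limma's interaction term gives the test. TSA changed the family-shared Slc25a51 probe set by -1.27 with AzaC and by 0.44 without it, a difference of -1.71, and AzaC changed it by -0.82 with TSA and by 0.89 without it, which is the same difference (unadjusted p = 0.0107, adjusted p = 0.9998). The difference was 0.35 for the brighter Slc11a2 probe set (0.20 with AzaC and -0.15 without, unadjusted p = 0.412). For Slc27a4, a fatty acid transporter, it was 1.37 (0.28 with AzaC and -1.09 without, unadjusted p = 0.0863). None of the 3 passed after adjustment. The other Slc25a51 probe set had an interaction term of 0.29.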

How the results depend on the processing

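With TSA against untreated (2 calls), a floor at 2.5% of the trimmed mean or an offset in its place left 1, no filter left 0, and leaving out 1 array left 0 to 2. With AzaC/TSA against untreated (1 call), quantile normalization, the 2.5% floor and the filter at 50% each left 0, and leaving out 1 array 0 to 2. With TSA exposure (13 calls), no filter left 4, no intensity trend 8, and leaving out 1 array 4 to 11. Between experiments (2 calls), quantile normalization gave 4, no filter and no intensity trend 0 each, and leaving out 1 array 0 to 1. The comparisons of AzaC and the interaction stayed at 0 calls throughout.

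The replicate block, which uses the pairing of arrays by experiment, gave 9 calls with TSA, 9 with AzaC/TSA and 22 with TSA exposure, as given in the report, and left the comparisons of AzaC and the interaction at 0.

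The amino acid median was -0.10 with no filter. The glucose and sugar median was 0.0138 with no filter and 0.83 with the filter at 50%. The mitochondrial median ran from -0.25 to 0.12 when 1 array was left out. Of the 627 values under the alternatives of members called with or without the block, 113 lost and 35 gained a call, and 0 were reversed. An array left out leaves its group with 1, assumed to vary like the others. The 2 arrays per group and signals near the floor limit all results: 71 of 185 members were not tested.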
